A study of Mus musculus with 8 samples.

Results

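The genes described here are the cell division families of the mouse: cyclins, cyclin-dependent kinases, Cdc genes, minichromosome maintenance (Mcm) genes, kinesins, Polo-like and Aurora kinases, Bub and Cenp genes, with Birc5, Tpx2, Top2a, Nusap1, Pcna, Rrm1 and Rrm2. They were chosen by symbol, and 97 of the 8741 named genes on the array met that rule. Of these 97, 95 were measured in all 4 mice and tested. The other two were Top2a, with values on 2 of 8 arrays (2.44 in mouse 3 and 0.77 in mouse 4), and the kinesin gene Kif9, with values on 6 arrays.

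A dividing cell first licenses and copies its DNA in S phase and then separates the copies in mitosis. S phase needs the MCM helicase, which unwinds DNA at replication origins, and ribonucleotide reductase, which makes the deoxynucleotides. Mitosis needs a spindle of microtubules, kinesin motors, kinetochores on the centromeres and a checkpoint that holds the cell until every chromosome is attached. Most cells of an adult lung do not divide, and transcripts of many S phase and mitosis genes come mainly from the few cells that do. Other genes that carry a family symbol have other or mixed work.

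The transgenic animals were 4 male fra-2 (Fosl-2 gene) transgenic mice of 14 weeks on a C57BL6 x CBA background, and they were set against 1 pool made from the lungs of 4 wild-type males, equal in age and background. Fra-2 is a transcription factor of the AP-1 family. The promoter that drives the transgene is not given in the sources used here, and no probe named Fosl2 was there to check the labels. Each transgenic mouse was hybridised against the pool on a dye-swapped pair of spotted arrays, 8 in all, and the 2 arrays of a mouse were averaged.

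Every value below is a log2 ratio of transgenic lung over wild-type pool, so that 1 means 2-fold higher in transgenic lung. That direction is likely only, since it rests on the order of the channels in the labels; in the opposite case every higher gene would be lower and every lower one higher. With 1 pool, the spread between wild-type mice is not in the tests. The ratios carry no level of a transcript, so the tissue could not be checked by its markers. In whole lung, more cells of a type and more RNA per cell cannot be told apart. A gene is called higher or lower where limma gave an adjusted p under 0.05 over the 8692 named genes tested. The arrays gave 20585 to 20729 values each, with medians between -0.093 and 0.008. The Cy3 array of mouse 4 spread more widely, with a median absolute deviation of 0.44, against 0.224 to 0.259 on the others. The 2 arrays of mouse 4 correlated at a Pearson r of 0.389, against 0.587 to 0.685 in the other mice. Genes were named by shifting the annotation by 11 probe numbers, the shift at which probes of the same gene resembled each other most.

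Of the 95 genes, 25 were higher and 7 were lower in transgenic lung (26.3% and 7.37%), where 13.5% of all named genes were higher and 18.4% were lower (31.9% in either direction). At an unadjusted p under 0.05, 33 were higher and 16 lower (34.7% and 16.8%), against 19.7% and 24.8% of all named genes. The median over the 95 genes was 0.12, against -0.01 over all named genes. Of the 95 genes, 20 were higher with the same sign on all 8 arrays, where 9.24% of all named genes were (803 of 8692). Among genes called higher, the same sign on all 8 arrays was met by 20 of 25 here and by 803 of 1175 named genes. Sorted by role, 6 of 15 S phase genes and 14 of 30 mitosis genes were higher, while none of 4 G1 phase genes and none of 12 other kinesins was. The cyclin gene Ccna2, which acts from S phase into mitosis, was higher as well. These roles were set with earlier results of these data known. Kif2a and Plk4, both called lower, were placed outside the mitosis genes.

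**Figure D1:**
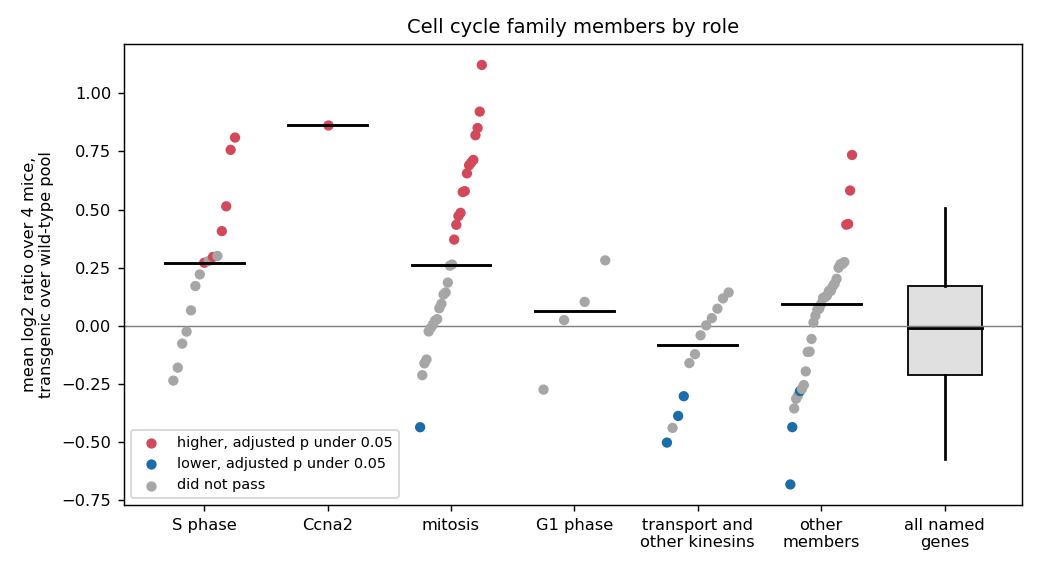
Mean log2 ratio of each cell division gene over 4 mice (y axis), transgenic lung over wild-type pool, by role (x axis), 1 point per gene, with the median of each role as a black line. The box on the right spans the quartiles of all 8692 named genes (-0.21 to 0.17) and its whiskers run to -0.57 and 0.51, the 5th and 95th percentiles. Red points are higher and blue points lower at an adjusted p under 0.05.

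The S phase genes that were higher were led by subunits of the MCM helicase. Mcm5 stood at 0.86, 0.55, 1.21 and 0.61 in mice 1 to 4, a mean of 0.81 ± 0.30 (SD, n = 4 mice) or 1.75-fold (adjusted p = 0.00377). Mcm2 stood at 1.09, 0.60, 0.80 and 0.53, a mean of 0.76 ± 0.25 or 1.69-fold (adjusted p = 0.00327). Both genes were above 0 on all 8 arrays, and mice 2 and 4 had the lowest ratios of both.

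The helicase is a ring of 6 different subunits, and their transcripts did not share one ratio. Mcm3 was higher at 0.67, 0.25, 0.51 and 0.20 (mean 0.41 ± 0.22, adjusted p = 0.02). Mcm6 (0.28 ± 0.24, adjusted p = 0.0746) and Mcm7 (0.22 ± 0.12, adjusted p = 0.066) were above 0 in every mouse and did not pass. Mcm4 did not pass either, at 0.02, -0.48, -0.01 and -0.47 (mean -0.24 ± 0.28, adjusted p = 0.146). In mice 1 and 3 Mcm4 was near 0 and in mice 2 and 4 it was below 0, the same mice in which the other subunits were lowest, apart from Mcm7, which was lowest in mice 3 and 4.

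Cyclin E, the product of Ccne1, drives entry into S phase. Ccne1 was higher at 0.42, 0.55, 0.48 and 0.61 (mean 0.51 ± 0.08, adjusted p = 0.00341), with little spread between mice. Its mean was 0.25 on arrays with the transgenic RNA in Cy5 (adjusted p = 0.0566) and 0.78 on those with it in Cy3.

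Both subunits of ribonucleotide reductase were higher by small amounts. Rrm2 stood at 0.37, 0.16, 0.40 and 0.25 (mean 0.30 ± 0.11, adjusted p = 0.024) and Rrm1 at 0.41, 0.19, 0.31 and 0.18 (mean 0.27 ± 0.11, adjusted p = 0.033). Mcm3, Rrm1 and Rrm2 were above 0 in every mouse, but were the S phase calls lost when single mice were left out. Without mouse 1 their adjusted p-values were 0.082, 0.143 and 0.102, and without mouse 3 they were 0.0673, 0.104 and 0.0916, so that 3 S phase genes were higher in either case. Rrm1 also missed the threshold without mouse 2 (adjusted p = 0.0748).

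The other 9 S phase genes did not pass, with means from -0.24 to 0.30. The highest of them was Cdc45, which encodes a part of the active helicase, at 0.56, 0.28, 0.34 and 0.02 (adjusted p = 0.0527); it was chosen after its values were seen. Those nearest 0 were Mcm10 (-0.02 ± 0.30), the licensing gene Cdc6 (0.07 ± 0.10) and the kinase gene Cdk2 (-0.08 ± 0.16). Pcna, the sliding clamp of DNA polymerase and a common proliferation marker, averaged -0.18 ± 0.21 over its pair of probes. One probe gave -0.37 (adjusted p over probes = 0.023) and the other 0.007 (adjusted p over probes = 0.973). Among all probes, 25.7% were called.

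The mitosis genes held the largest ratios of the families. Birc5, the gene of survivin, a subunit of the chromosomal passenger complex, stood at 1.29, 0.79, 1.36 and 1.05 (mean 1.12 ± 0.26, 2.18-fold, adjusted p = 0.00115). Tpx2, which encodes a spindle assembly factor that activates Aurora A, stood at 0.99, 0.61, 0.89 and 1.20 (mean 0.92 ± 0.24, adjusted p = 0.00171). The 4 mice lay above 0 for both genes, with mouse 2 lowest. Tpx2 differed between the dye orientations, with 0.36 on the Cy5 arrays (adjusted p = 0.101) and 1.48 on the Cy3 arrays.

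Cyclin A2 acts in both S phase and mitosis. Ccna2 stood at 1.06, 0.70, 0.93 and 0.77 (mean 0.87 ± 0.16, 1.82-fold, adjusted p = 0.00121), and its probes agreed, at 0.80 and 0.93. Cdk1, the kinase that cyclins A and B activate to start mitosis, stood at 0.37, 0.59, 0.57 and 0.36 (mean 0.47 ± 0.12, adjusted p = 0.00557). Cdc25c, the phosphatase that switches this kinase on, stood at 0.74, 0.36, 0.73 and 0.47 (mean 0.58 ± 0.19, adjusted p = 0.00488). The other phosphatase gene of this group, Cdc25b, averaged -0.21 ± 0.10 and did not pass (adjusted p = 0.0688). With Cy3 arrays only, Cdk1 did not pass (adjusted p = 0.0622).

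Bub1b, which encodes the checkpoint kinase BubR1, stood at 0.84, 0.46, 0.73 and 0.78 (mean 0.70 ± 0.17, adjusted p = 0.00239). Bub3, another checkpoint gene, averaged 0.03 ± 0.14 and did not pass (adjusted p = 0.814). Cdc20, the activator of the anaphase-promoting complex and the target of that checkpoint, stood at 0.81, 0.65, 0.78 and 1.03 (mean 0.82 ± 0.16, adjusted p = 0.00137). Cdc16, a core subunit of the same complex, was the only gene sorted under mitosis that was called lower. It stood at -0.26, -0.51, -0.42 and -0.56 (mean -0.44 ± 0.13, adjusted p = 0.00771), as the average of probes at -0.71 (adjusted p over probes = 0.005) and -0.16 (adjusted p over probes = 0.185).

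Kinases and spindle proteins followed. Plk1, the Polo-like kinase of mitosis, stood at 0.79, 0.14, 0.67 and 0.71 (mean 0.58 ± 0.29, adjusted p = 0.0105), with mouse 2 well below the others. Nusap1, which encodes a protein that binds and bundles spindle microtubules, stood at 0.68, 0.41, 0.88 and 0.64 (mean 0.66 ± 0.19, adjusted p = 0.00337). Among the smaller rises, which were named after their values were seen, Aurora A (Aurka) averaged 0.37 ± 0.10 (adjusted p = 0.0108) and the chromosome kinesin gene Kif4 0.43 ± 0.14 (adjusted p = 0.00845). Aurka did not pass on the Cy3 arrays alone (adjusted p = 0.214).

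Of 6 mitotic kinesins, 3 were higher and none lower (50% higher, where 13.5% of all named genes were). That split depends on the sorting by role, which placed Kif2a with the other kinesins. The other three were Kif22 (0.14 ± 0.30), Kif18b and Kif20a (-0.14 ± 0.09), which did not pass. Kif23, a motor of the central spindle needed to divide the cell body, had the least spread, at 0.71, 0.65, 0.68 and 0.73 (mean 0.69 ± 0.04, adjusted p = 0.00123). Kif2c, a microtubule depolymerase at centromeres, stood at 0.51, 0.21, 0.53 and 0.69 (mean 0.49 ± 0.20, adjusted p = 0.00904), from probes at 0.80 and 0.18. Of 12 other kinesins, none was higher, also at an unadjusted p under 0.05, and 3 were lower by limma (25%, where 18.4% of all named genes were lower). They were Kif5b, the heavy chain of conventional kinesin (-0.50 ± 0.14, adjusted p = 0.0051), Kif2a, a relative of Kif2c with known work in neurons and at spindle poles (-0.39 ± 0.11, adjusted p = 0.0102), and Kif12 (-0.30 ± 0.15, adjusted p = 0.031). Their values ran from -0.69 to -0.12 over the 4 mice and so stayed below 0. Kif12 missed the threshold without mouse 1, 2 or 4 (adjusted p = 0.0817, 0.122 and 0.0803), and Kif2a on the Cy5 arrays alone (adjusted p = 0.0963).

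Of 11 Cenp genes, which encode proteins of centromeres and kinetochores, 2 were higher and none lower (18.2% higher, where 13.5% of all named genes were). At an unadjusted p under 0.05, 5 were higher and 0 lower, and 19.7% of all named genes were higher. Cenpe, a kinetochore motor made for mitosis, stood at 1.08, 0.60, 0.85 and 0.87 (mean 0.85 ± 0.20, adjusted p = 0.0016). Cenps, which encodes a histone-fold protein of the kinetochore, stood at 0.67, 0.44, 0.59 and 1.15 (mean 0.71 ± 0.31, adjusted p = 0.00569). The other 9 had means from -0.16 to 0.26. Cenpt (0.0048 ± 0.24) and Cenpx (0.02 ± 0.11), the genes of other histone-fold proteins at the kinetochore, and the kinesin gene Kif18b (-0.0089 ± 0.13) were the mitosis genes nearest 0. Birc5, Cdc20, Kif23 and Cenps are named only from blocks of annotation numbers where the naming is less certain, as is 1 probe of Aurka. Bub3, Ccnb2 and Cenpo, which were not called, also have a probe in those blocks. With every mitosis gene that has such a probe left out, 9 of the 22 remaining were higher.

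**Figure D2:**
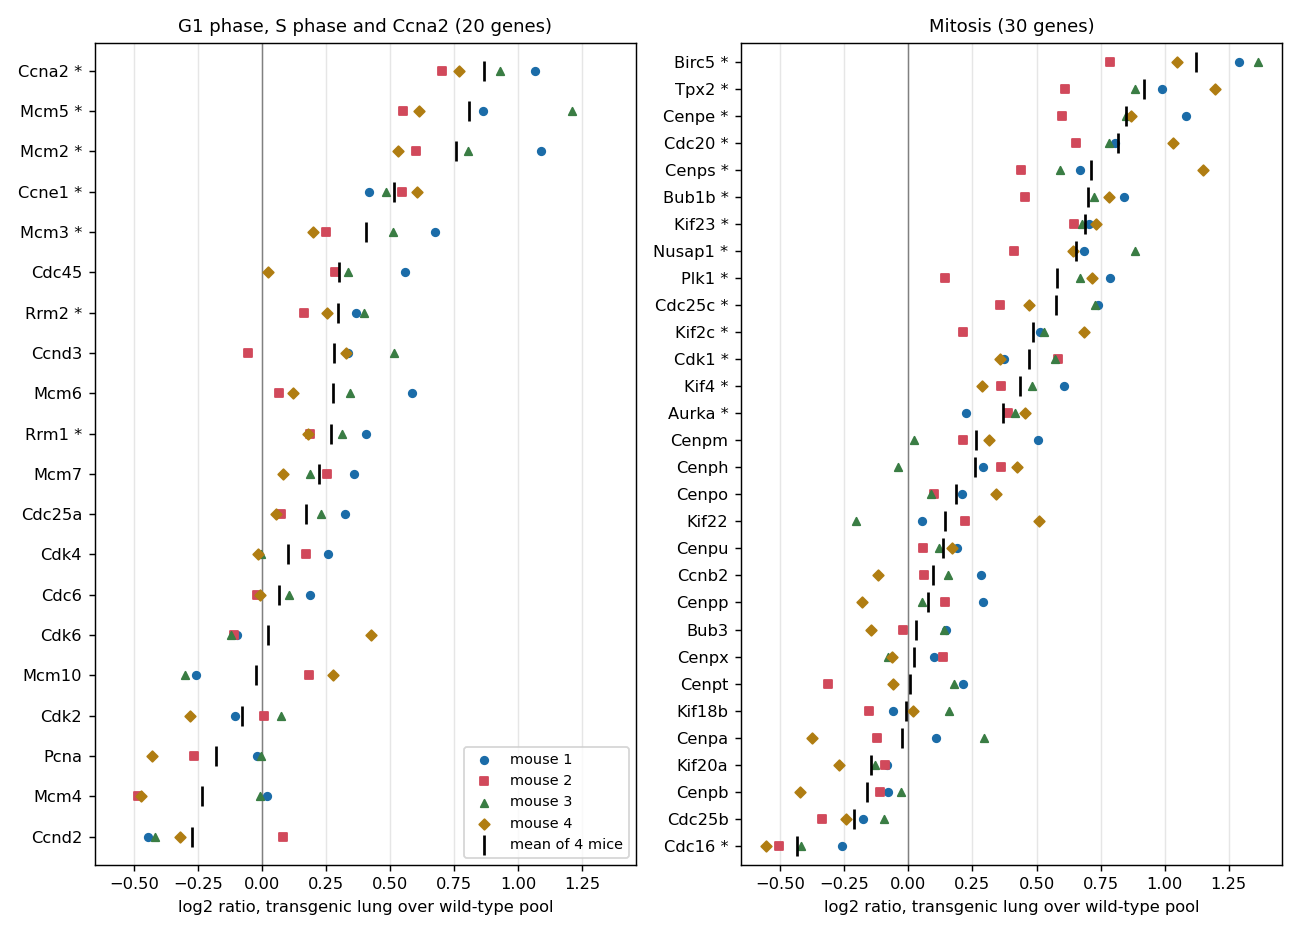
Log2 ratio of transgenic lung over wild-type pool (x axis) in each of 4 mice (symbols) for G1 phase, S phase and Ccna2 genes (left) and mitosis genes (right), with the mean as a black bar and an asterisk on genes called at an adjusted p under 0.05. Birc5 has the highest mean (1.12) and Cdc16 the lowest of the mitosis genes (-0.44), and mouse 2 (squares) is lowest in 11 of the 14 mitosis genes called higher.

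Several genes had probes that did not agree, and for these the average says little. Ccnb2, the gene of cyclin B2, averaged 0.09 ± 0.17 and did not pass. One of its probes was higher in every mouse, at 0.87, 0.49, 0.66 and 0.27 (adjusted p over probes = 0.011), and the other lower in every mouse, at -0.31, -0.37, -0.36 and -0.50 (adjusted p over probes = 0.015). The lower one lies in a block of annotation numbers where names are less certain. It was the only gene of the 29 with several probes whose probes were called in opposite directions.

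Kif22, a chromosome-arm kinesin gene, had a probe at 0.56 ± 0.24 (adjusted p over probes = 0.011) and another at -0.27 ± 0.73 (adjusted p over probes = 0.443). Kif20a, a central spindle kinesin gene, had probes at -0.43 (adjusted p over probes = 0.015) and 0.14 (adjusted p over probes = 0.274). Mcm10 had a probe at 0.33 (adjusted p over probes = 0.048) beside probes at 0.04 and -0.45. With Pcna and Ccnb2, 9 genes had a called probe and another of the other sign. The other four were Cdc42, Cdk12, Kif13a and Kif5c, whose called probes gave -0.54 and -0.36 for Cdc42, 0.48 for Cdk12, -0.57 for Kif13a and -0.33 for Kif5c.

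**Figure D3:**
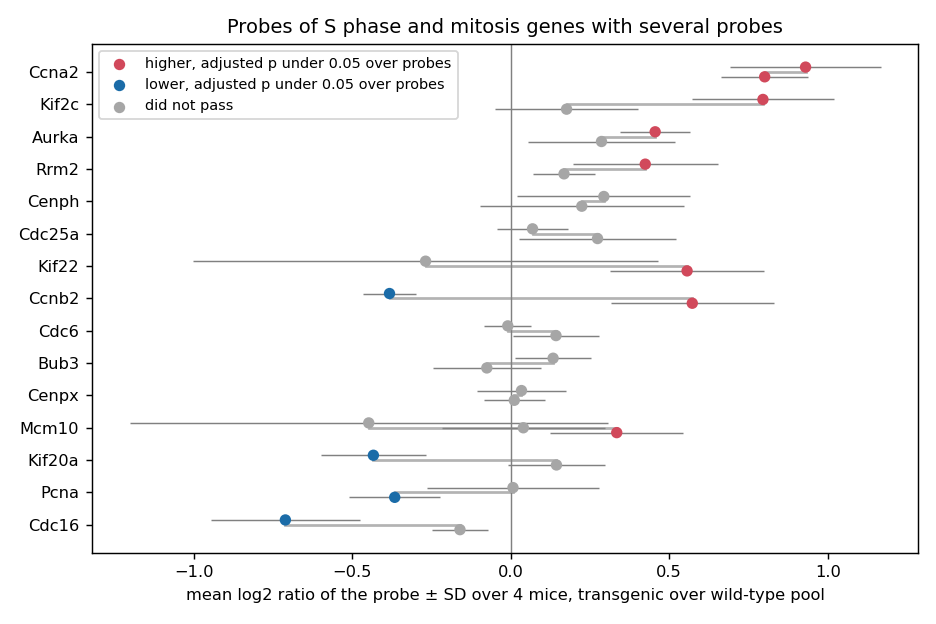
Mean log2 ratio ± SD over 4 mice (x axis) of each probe for the 15 S phase and mitosis genes with several probes, with grey lines joining probes of a gene. Red and blue probes were higher and lower at an adjusted p under 0.05 over all probes. Ccna2 has both probes higher (0.80 and 0.93), and Ccnb2 has one on each side of 0 (0.57 and -0.38).

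The question of S phase against mitosis was answered by medians and counts alone, because genes of a list are not replicates. The median was 0.26 for the mitosis genes and 0.27 for the S phase genes, a difference of -0.01. In mice 1 to 4 the mitosis medians were 0.29, 0.21, 0.24 and 0.35, and the S phase medians 0.37, 0.18, 0.31 and 0.12. The difference was therefore -0.08, 0.03, -0.08 and 0.23, with mice 1 and 3 on one side of 0 and mice 2 and 4 on the other. On the Cy5 arrays the mitosis median was 0.21 and the S phase median 0.28, and on the Cy3 arrays they were 0.44 and 0.24. The values of mouse 4 and of the Cy3 arrays include the Cy3 array of mouse 4, which had the widest spread. So among these family members neither phase stood above the other across mice or dyes. By count, 40% of S phase and 46.7% of mitosis genes were called higher. In the lists of division genes outside these families, the mitosis medians were above the S phase medians in every mouse. They were 0.25, 0.09, 0.11 and 0.21 against 0.15, 0.0035, 0.10 and -0.07. On the Cy5 arrays they were 0.14 against 0.08, and on the Cy3 arrays 0.24 against 0.12. That difference was not tested.

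**Figure D4:**
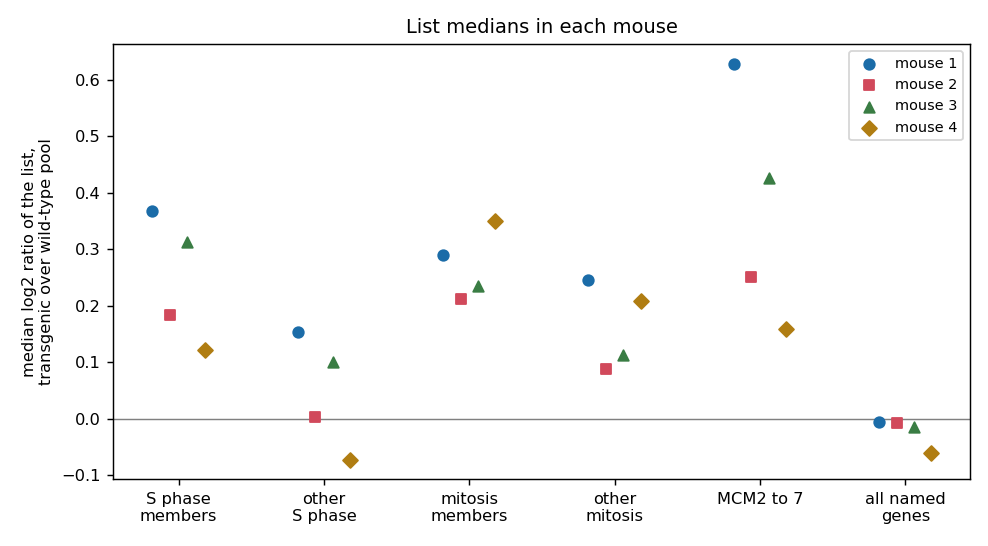
Median log2 ratio of each gene list (y axis), transgenic lung over wild-type pool, in each of 4 mice (symbols). The S phase medians run from 0.12 to 0.37 and the mitosis medians from 0.21 to 0.35, while the medians of all named genes lie between -0.06 and -0.01.

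Of the 14 mitosis genes called higher, mouse 2 was lowest in 11, while it was lowest in 380 of the 1175 named genes called higher (32.3%). Mouse 4 was lowest in 3 of the 6 S phase genes called higher. The genes share their RNA samples and arrays, so these counts describe 4 mice. By a limma F test over the arrays with dye as a covariate, 0 of 94 genes differed between mice beyond the spread of their arrays, where 2.78% of named genes did. At an unadjusted p under 0.05 there were 16, and the lowest adjusted p was that of Ccna1 (0.0568). Neither did any of them show a dye effect at an adjusted p under 0.05, as for all named genes (0%); at an unadjusted p under 0.05 there were 26 of 94 and 2311 of 8645.

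Some genes of immune cells were also called in the same samples. Among all named genes, 13.5% were higher and 18.4% lower. The erythroid (20% and 20%) and endothelium (11.1% and 22.2%) marker shares were near these, as was the 16.7% of type 2 alveolar epithelium markers that were higher. Of 12 macrophage marker genes tested, 9 were higher and 0 lower, with medians of 1.62, 0.74, 1.35 and 0.84 in mice 1 to 4. Of 9 B and plasma cell markers, 6 were higher and 1 lower, with medians of 0.79, 0.40, 0.82 and 0.43. T and NK cell markers had 2 higher and 1 lower of 5 (medians 0.97, 0.16, 0.45 and 0.05), neutrophil and marrow markers 5 and 3 of 10, and erythroid markers 1 and 1 of 5. Mice 2 and 4 had the lower macrophage, B cell and T cell medians and also the lower S phase medians. The mitosis medians had another order, with mouse 4 highest (0.35). Mouse 4 was also highest in the neutrophil and marrow medians (0.16, 0.07, 0.05 and 0.43) and the erythroid medians (0.14, -0.03, -0.01 and 0.32). The same held for the heart and skeletal muscle and the fat medians, which were below 0 in every mouse. The values of mouse 4 include the Cy3 array with the widest spread. Of type 2 alveolar epithelium markers, 1 of 6 was higher, of endothelium markers 1 of 9 was higher and 2 lower, and of ciliated cell markers 0 of 6 were called by limma (1 higher and 2 lower at an unadjusted p under 0.05). Alveolar macrophage markers were lower in 3 of 4, fibroblast markers in 4 of 11, heart and skeletal muscle markers in 11 of 12 and fat markers in 6 of 8, with 1 fat marker higher. The part of any of these cells in the cell division result was not tested.

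The G1 phase genes did not pass, with 1 higher and 1 lower at an unadjusted p under 0.05. The cyclin D genes, whose products start the cycle in response to growth signals, stood on opposite sides of 0. Ccnd3 had 0.34, -0.06, 0.52 and 0.33 (adjusted p = 0.0743), and Ccnd2 had -0.44, 0.08, -0.42 and -0.32 (adjusted p = 0.0818). Mouse 2 was the one near 0 for both. Without it, Ccnd3 was called higher at 0.39 (adjusted p = 0.0357) and Ccnd2 lower at -0.39 (adjusted p = 0.0319). Their kinases averaged 0.10 ± 0.13 (Cdk4) and 0.02 ± 0.27 (Cdk6).

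The remaining 33 genes carry a family symbol and have other or mixed work. Of these, 4 were higher and 3 lower (12.1% and 9.09%), where 13.5% of all named genes were higher and 18.4% lower. Plk4, the kinase that starts the duplication of centrioles, was lower at -0.74, -0.77, -0.50 and -0.72 (mean -0.68 ± 0.12, adjusted p = 0.00181), below 0 on all 8 arrays, while its relative Plk1 was higher. Cdk14, a cyclin Y kinase, was lower at -0.44 ± 0.19 (adjusted p = 0.0124), and did not pass without mouse 2 (adjusted p = 0.0535), nor with Cy3 arrays only (adjusted p = 0.0532). The third, Cdc42, a small GTPase of cell shape and polarity, averaged -0.28 ± 0.14 (adjusted p = 0.0359). It lost its call without any 1 of the 4 mice (adjusted p = 0.0524 to 0.108).

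Among those that were higher, Cdk18 stood at 0.79, 0.32, 0.49 and 0.72 (mean 0.58 ± 0.22, adjusted p = 0.00565). Cdk9, the kinase that releases paused RNA polymerase II, stood at 0.45, 0.44, 0.43 and 0.44 (adjusted p = 0.00461), with 0.66 on the Cy5 arrays and 0.22 on the Cy3 arrays (adjusted p = 0.174). Cdk11b averaged 0.43 ± 0.23 (adjusted p = 0.0163), and gave an adjusted p of 0.0706 with mouse 1 left out and of 0.0682 with mouse 2 left out. Ccna1, a cyclin known for its part in male germ cells, stood at 0.42, 1.13, 0.01 and 1.38 (mean 0.73 ± 0.63, adjusted p = 0.0374). Mouse 3 was near 0 and mice 2 and 4 were high, the reverse of the order seen for Mcm2 and Mcm5. Its call was lost without mouse 1, 2 or 4 (adjusted p = 0.0593, 0.128 and 0.133).

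Division genes outside these families were read from lists of their own. Of 29 other S phase genes, 9 were higher and 2 lower (31.0% and 6.90%), with a median of 0.06. Among all named genes, 13.5% were higher and 18.4% lower. Pold1, the catalytic subunit of DNA polymerase delta, had the largest ratio, at 1.90, 1.33, 1.75 and 1.33 (mean 1.58 ± 0.29, adjusted p = 5.9e-04). Uhrf1, which couples DNA methylation to replication, averaged 1.08 ± 0.21 (adjusted p = 9.1e-04), DNA ligase 1 (Lig1) 0.68 ± 0.09 (adjusted p = 0.00153) and the chromatin assembly gene Chaf1a 0.52 ± 0.14 (adjusted p = 0.00475). Lig1 is named only from a block of annotation numbers where the naming is less certain. The origin recognition gene Orc3 (-0.42 ± 0.13, adjusted p = 0.00835) and Rpa1, a subunit of the single-strand binding protein (-0.33 ± 0.08, adjusted p = 0.0145), were lower. Rpa1 did not keep its call without mouse 1 or mouse 3. Without mouse 1, 4 genes of this list were higher and 1 lower, without mouse 3 they were 5 and 1, and without mouse 4 they were 5 and 2.

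Of 39 other mitosis genes, 17 were higher and 3 lower (43.6% and 7.69%, against 13.5% and 18.4% of all named genes), with a median of 0.17. Cdca3, whose product helps to destroy the Wee1 kinase at entry into mitosis, averaged 1.01 ± 0.27 (adjusted p = 0.00161), and the kinase gene Pbk 0.82 ± 0.34 (adjusted p = 0.00473). Pbk, too, is named only from a block of annotation numbers where the naming is less certain. Racgap1, a partner of Kif23 at the central spindle, averaged 0.72 ± 0.36 (adjusted p = 0.00818), and the condensin gene Ncapd2 0.60 ± 0.10 (adjusted p = 0.00244). Cdca8, the gene of borealin, which sits in one complex with survivin, was lower at -0.62 ± 0.04 (adjusted p = 0.00168), against Birc5 at 1.12. The kinetochore genes Ska2 (-0.48 ± 0.22, adjusted p = 0.011) and Zwint (-0.38 ± 0.12, adjusted p = 0.0112) were lower too. Without mouse 1, 10 genes of this list were higher.

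Inhibitors of the cyclin-dependent kinases were lower in 2 and higher in 0 of 5 (40% lower, where 18.4% of all named genes were). At an unadjusted p under 0.05, 3 were lower and 0 higher. Cdkn1c, the gene of the inhibitor p57, stood at -0.92, -0.63, -0.96 and -0.92 (mean -0.86 ± 0.15, adjusted p = 0.00119). Cdkn2c, an inhibitor of Cdk4 and Cdk6, averaged -0.51 ± 0.27 (adjusted p = 0.0139) and missed the threshold without mouse 2 (adjusted p = 0.0575). Cdkn1c and Cdkn2c are named only from blocks of annotation numbers where the naming is less certain. Of 9 E2F and pocket protein genes, 2 were lower and 0 higher (22.2% lower, where 18.4% of all named genes were). At an unadjusted p under 0.05, 4 were lower and 0 higher, and 24.8% of all named genes were lower. The 2 called were the E2F partner Tfdp1 (-0.57 ± 0.12, adjusted p = 0.00321) and the pocket protein gene Rbl2 (-0.28 ± 0.12, adjusted p = 0.0333). Rbl2 lost its call without any 1 of the 4 mice.

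S phase and mitosis genes are known to be read through different promoter elements. E2F sites serve genes of S phase, and the cell cycle genes homology region (CHR), often paired with CCAAT boxes, serves genes of mitosis. RefSeq promoters of build GRCm38.p6, 300 bases long with 250 before the start, were matched by gene for 14 of the 15 S phase and 27 of the 30 mitosis genes tested. The letters searched on both strands were TTTNNCGC for E2F, TTTGAA or TTCGAA for the CHR and CCAAT for the CCAAT box. The CHR letters stood in 16 of 29 promoters of mitosis genes (55.2%), in 3 of 15 of S phase genes (20%) and in 19.2% of all promoters. The E2F letters stood in 6 of 29 promoters of mitosis genes (20.7%), in 7 of 15 of S phase genes (46.7%) and in 5.17% of all promoters. CCAAT stood in 20 of 29 (69%), 13 of 15 (86.7%) and 37.4%.

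Within the mitosis genes, the CHR letters stood in 8 of 12 promoters of genes called higher and in 8 of 17 of the others. Within the S phase genes, the E2F letters stood in 2 of 6 promoters of genes called higher and in 5 of 9 of the others. These counts describe letters and carry no test. The 160 bases before the start are shown for Cdc20 and Cdk1, which were higher and hold the CHR letters near the start, and for Mcm5, the S phase gene with the largest mean, which holds E2F letters. Capitals mark the E2F, CHR and CCAAT letters on either strand.
Cdc20: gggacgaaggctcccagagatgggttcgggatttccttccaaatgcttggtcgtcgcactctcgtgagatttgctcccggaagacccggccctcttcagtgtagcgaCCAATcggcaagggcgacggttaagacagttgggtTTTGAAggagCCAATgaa
Cdk1: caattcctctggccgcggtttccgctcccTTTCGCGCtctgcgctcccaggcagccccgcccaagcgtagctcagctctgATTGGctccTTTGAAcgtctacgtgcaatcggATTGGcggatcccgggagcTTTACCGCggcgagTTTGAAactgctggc
Mcm5: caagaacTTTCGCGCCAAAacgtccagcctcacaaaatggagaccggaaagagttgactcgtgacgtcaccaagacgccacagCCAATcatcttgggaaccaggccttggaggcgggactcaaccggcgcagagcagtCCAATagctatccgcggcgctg

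The Cdc20 stretch is chr4:118437344-118437503 on the minus strand and holds 1 CHR match, 18 bases before the start, between CCAAT boxes. The Cdk1 stretch is chr10:69352913-69353072 on the minus strand and holds 2 CHR and 2 E2F matches and 2 CCAAT boxes. The Mcm5 stretch is chr8:75109349-75109508 on the plus strand, with 2 E2F matches that overlap, 2 CCAAT boxes and no CHR match. For Birc5, the gene with the highest mean, no match of the 3 motifs was listed. Whether its promoter was among those searched is not shown here, so nothing is concluded from that.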

How the data were processed

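The deposited values are log2 ratios of 2 channels, 1 column per array, already processed by the authors by steps not stated in the labels. That the scale is log2 was read from the deposited values. Per the labels' protocols, total lung RNA was reverse transcribed and labelled indirectly with Cy3 and Cy5. The 4 mice are separate animals. Arrays carry no counts, so their number limits the precision.

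The 498 placeholder values over 10 in size were set missing, both arrays of a mouse were averaged, then probes of a gene. Probe names came from the annotation at an offset of 11, at which probes of 1 gene correlated best (Spearman 0.224 over 4802 pairs, against 0.0578 at most at other offsets). The named probes numbered 12296 and the unnamed 8498. In 2 blocks of annotation numbers, starting at 8000 and 13000, the offset was treated as less certain. The Spearman there was 0.065 and 0.13, and another offset was best only in the block at 8000. The block at 18000 stood at 0.118 and was not marked as less certain. Limma 3.58.1 in R 4.3.3 tested mouse means against 0 with Benjamini-Hochberg adjustment, after tests on simulated data. Named per role were up to 12 called members by size, up to 3 nearest 0 that did not pass and any called against the majority; of the rest, up to 5 called per direction and those whose probes disagree; of other lists, up to 4 per direction. Members, lists and rules were chosen with earlier results of these data known. Alternatives covered placeholders, centring, scaling, each dye, each mouse left out, a mouse block, probe choice, thresholds and naming. Mice of 6 and 10 weeks were not analysed here.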

Additional observations from a re-analysis of the deposited data

Results flagged for a closer look

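In 4 of 99 sets of 4 mice, 1 mouse lay far from the other three by Dixon's test at the 95% level, which chance gives in about 1 in 20 sets. They were Cdk6 with mouse 4 at 0.43, Kif17 with mouse 1 at 0.33, Cdc14b with mouse 4 at 0.85 and Cdk5 with mouse 3 at 0.09. None of these 4 genes was called. One Cdc14b probe, among the less certainly named, stood at 2.61 in mouse 4.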

How the results depend on the processing

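The 32 called genes of the families kept their direction under each alternative that gave them a value. Of 27 with a value under all 16, 13 kept their call. The other 5, which the naming alternative leaves out, were Birc5, Cdc20, Cenps and Kif23, which kept theirs elsewhere, and Aurka, which did not. With the transgenic RNA in Cy3 alone, 3 S phase genes were higher, 2 mitosis genes were lower, 11 other mitosis genes were higher and 1 lower, the mitosis median was 0.44, and mitosis minus S phase was 0.19, a change of sign. With Cy5 alone, 5 other mitosis genes were lower. With mouse as a random block, 13 members were lower. At an adjusted p under 0.01, 3 members were lower, 3 S phase genes higher, 4 other S phase genes higher and 1 lower, and 10 other mitosis genes higher and 1 lower. With the same sign required on all 8 arrays, 10 other mitosis genes were higher. Over single probes, 11 members, 1 S phase gene and 2 mitosis genes were lower. Without the less certainly named genes, 9 mitosis genes were higher. Leaving out 1 mouse gave 20 to 25 members higher and 5 to 6 lower, 3 to 7 S phase and 14 to 15 mitosis genes higher, medians of 0.18 to 0.30 for S phase and 0.22 to 0.35 for mitosis, and a difference of -0.0773 to 0.0938, above 0 without mouse 1 (0.04) and mouse 3 (0.0938). Other S phase genes were higher in 4 to 6 and lower in 1 to 2, and other mitosis genes higher in 10 to 15 and lower in 3. The causes were not tested. No paired analysis was possible because the mice have a single pool as their reference.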
